A study of Mus musculus with 12 samples.

Results

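The genes described here are 41 histone modifying enzymes and chromatin remodelers, chosen by name from 10 families and found by the mouse symbol of their Ensembl identifier among the 54838 genes counted in spinal cord RNA. The families are the class I histone deacetylases (HDACs), the class II and IV HDACs, the sirtuins, the core of Polycomb repressive complex 2 (PRC2), the lysine methyltransferases, the arginine methyltransferases, the lysine demethylases, the acetyltransferases, the SWI/SNF remodelers and the CHD remodelers. All 41 genes were found, and all 41 were among the 31109 genes with enough counts to be tested. RNA was sequenced from mice at postnatal day 60 in 4 groups with 3 libraries in each. Control mice were Olig1+/+;Tet1fl/fl and Tet1 mutants were Olig1cre/+;Tet1fl/fl, so both genotypes carried the floxed Tet1 alleles and only the mutant carried the cre recombinase, which is expressed from the Olig1 locus and therefore limits the deletion to cells of the oligodendrocyte lineage and their precursors. Tissue was taken either from the cord at 4 days after injection of lysolecithin (4dpl), a lipid that strips myelin at the injection site, or unlesioned from the opposite side. Cells were enriched for oligodendroglia on a Percoll density gradient but not sorted, so a value is a sum over all cells of the preparation, and in these bulk samples fewer cells of a type and less RNA per cell cannot be told apart. Which libraries came from 1 mouse was not given, and p-values measure the spread between these libraries.

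DNA in the nucleus is wrapped on histones, and the enzymes of these families add or remove acetyl and methyl groups on histone tails, while remodelers use ATP to slide or evict the histones themselves. Acetyltransferases such as p300 and CBP are linked to active genes and HDACs to their silencing, and methyl groups act either way depending on the residue that carries them. In the oligodendrocyte lineage, HDAC1 and HDAC2, the PRC2 methyltransferase EZH2, the arginine methyltransferases PRMT1 and PRMT5 and the remodelers BRG1 (Smarca4), CHD7 and CHD8 are known from mouse genetics as regulators of the step from progenitor to myelinating cell.

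Total counts per library were between 34805086 and 67251544. Unlesioned libraries had a count for 40023 to 44516 genes and 4dpl libraries for 33964 to 37516. Summed reads of 1428 olfactory and vomeronasal receptor genes, which spinal cord is not known to express, lay between 0.0612 and 0.219 RPKM (reads per kilobase of exon, scaled to library size) in the unlesioned libraries and between 0.0175 and 0.0459 at 4dpl, so unlesioned libraries carried more reads over genes of this kind. In the unlesioned libraries that level was at most 19.0% of the level of a member (Hdac9), then 9.60% (Chd8) and 7.92% (Hdac8), and at 4dpl at most 2.18%. Summed over 8 genes, microglial markers ran from 2500 to 9266 CPM (counts scaled to library size) unlesioned and from 8433 to 14536 CPM at 4dpl, and summed over 10 genes, oligodendrocyte markers ran from 14678 CPM in mutant unlesioned replicate 2 to 69635 CPM in mutant 4dpl replicate 3, where every other library had at most 34528 CPM. Myeloid markers ran from 6940 to 29506 CPM, neuronal markers from 81.8 to 232 CPM and endothelial and mural markers from 19.2 to 45.4 CPM over the 12 libraries. Summed over 7 genes, astrocyte markers ran from 192 to 293 CPM unlesioned and from 324 to 613 CPM at 4dpl, with no overlap. Fibroblast and meninges markers, summed over 5 genes, ran from 15.5 to 38.4 CPM in unlesioned and from 91.6 to 198 CPM in lesioned controls, but from 26.01 to 70.4 and from 42.01 to 62.1 CPM in mutants, where the groups overlapped. None of the marker genes was at 0 in all libraries. The part that a shift in cell makeup had in the values below was not tested except where a value is given. Tet1 itself was at 16.1 ± 1.93 CPM (SD, n = 3) in control and 12.8 ± 3.28 CPM (SD, n = 3) in mutant unlesioned libraries (p = 0.3 by a two-sided exact permutation test, which cannot go below 0.1 here), and at 12.1 ± 0.390 and 15.2 ± 5.55 CPM (SD, n = 3) at 4dpl (p = 0.5 by the same exact test). A count over the whole gene cannot show the loss of the floxed exon in a subset of the cells, so genotypes rest on the sample labels alone.

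Levels between genes were compared as RPKM, which divides by the exonic length. The 41 genes spanned from 64.6 RPKM, the mean over 12 libraries of Sirt2, to 1.10 RPKM for Hdac9. Sirt2, a NAD-dependent deacetylase that also acts on tubulin and is abundant in myelin, stood above all others, followed by Hdac1 at 28.03, the nucleolar sirtuin gene Sirt7 at 23.7, Smarca4 at 17.2 and Hdac3 at 14.8 RPKM. At the lower end Sirt1 had 2.04, Hdac8 2.03 and Chd8 1.71 RPKM. Prmt1 at 12.8 and Eed at 12.8 RPKM, as well as Kdm4a at 6.89, Arid1a at 6.88 and Setdb1 at 6.86 RPKM, are neighbours in this order whose means differ by less than the SD of their groups. The highest level in each remaining family was that of Hdac5 (11.4 RPKM), Ehmt2 (9.58), Kdm6b (8.90), Kat2b (7.91) and Chd4 (11.7). Exons of Hdac4, Hdac11, Suv39h1 and Sirt3 share 22.4%, 17.9%, 14.6% and 12.7% of their bases with another annotated gene, so their counts are less certain.

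The first question of the design was how the lesion changed these genes in control mice. Setdb1, Hdac8 and Hdac9 rose, 3 of 41 genes, and none fell. Over all genes tested, 5.12% were called as higher and 5.01% as lower (edgeR, p under 0.01 and Benjamini-Hochberg adjusted p under 0.05), so the count of members lies near the background. Setdb1, which encodes a methyltransferase of histone H3 lysine 9 that silences retroelements, was the clearest.

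Setdb1 (ENSMUSG00000015697, chromosome 3 of GRCm38, 95323525 to 95357202, minus strand) had 27.1, 23.5 and 26.8 CPM in control unlesioned replicates 1 to 3. At 4dpl the control libraries had 60.8, 67.4 and 63.1 CPM. These groups were far apart, and the lowest lesioned library lay above every unlesioned library of either genotype. The log2 change was 1.31 ± 0.21 (SE), a 2.47-fold rise with adjusted p = 0.0214 in edgeR. In Tet1 mutants Setdb1 had 43.3, 28.1 and 42.3 CPM unlesioned and 68.1, 58.3 and 55.3 CPM at 4dpl. The mutant groups did not overlap either, but replicates 1 and 3 of the unlesioned mutant were above all unlesioned controls, and the change of 0.68 ± 0.21 did not pass the threshold (adjusted p = 0.0673, edgeR). The call in control was made under 20 of 24 alternative settings, and without control unlesioned replicate 2, control 4dpl replicate 1 or control 4dpl replicate 2 the adjusted p became 0.0881, 0.0742 and 0.0798.

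Hdac8, an X-linked class I deacetylase that acts on cohesin, had 6.87, 6.76 and 7.29 CPM in the control unlesioned libraries. At 4dpl it had 11.9, 11.5 and 12.7 CPM in control, with no overlap, and the change was 0.79 ± 0.21 on the log2 scale (adjusted p = 0.0395, edgeR). Mutant libraries had 9.93, 9.38 and 9.69 CPM unlesioned and 9.75, 10.4 and 11.9 CPM at 4dpl. The unlesioned mutant libraries thus lay between both control groups and overlapped with the lesioned mutant libraries, where the change was 0.14 ± 0.21 (adjusted p = 0.640, edgeR). Hdac9, a class IIa deacetylase best known in muscle, had 8.36, 5.25 and 13.2 CPM in unlesioned and 19.1, 18.1 and 25.7 CPM in lesioned controls, again without overlap, and changed by 1.23 ± 0.36 (adjusted p = 0.0466, edgeR). Its mutant libraries had 17.7, 7.58 and 11.3 CPM unlesioned and 28.6, 19.996 and 18.9 CPM at 4dpl, where the highest unlesioned value of 17.7 CPM was just under the lowest lesioned value of 18.9 CPM. The control calls for Hdac8 and Hdac9 were each kept under 10 of 24 alternative settings, and each was lost when any of 5 control libraries was left out for Hdac8 and any of 6 for Hdac9, as well as without mutant unlesioned replicate 3 or mutant 4dpl replicate 1 or 2. With an estimate of the receptor reads subtracted, an alternative added after the data were seen, all 3 calls were lost, with adjusted p between 0.0505 for Setdb1 and 0.113 for Hdac9, where 0.118% of all genes were called. The mean sum of the fibroblast and meninges markers was 27.4 CPM in unlesioned and 128 CPM in lesioned controls and 49.5 and 55.2 CPM in mutants, and that of the astrocyte markers 207 and 463 CPM in controls and 256 and 441 CPM in mutants. The part of these cells in the 3 calls was not tested.

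The same question in Tet1 mutants gave 0 calls among the 41 genes. Over all genes 0.0225% were called higher and 0.113% lower, and 14 members (34.1%) had an unadjusted p under 0.05, as did 33.8% of all genes. These 14 were all higher at 4dpl, where 15.9% of all genes were higher and 17.9% lower at that level. DESeq2 called 3 members and 17.0% of all genes, and edgeR with its newer dispersion option called 4 members and 14.2% of all genes, so neither count lies above the background. The smallest p-values belonged to Prmt1 (change 0.72 ± 0.19, adjusted p = 0.0559), Prmt5 (0.75 ± 0.21, adjusted p = 0.0600) and Hdac6 (0.84 ± 0.25, adjusted p = 0.0622). The median change of the members was 0.40 in mutants and 0.17 in controls, where the median of all genes was -0.18 and -0.36. Whether a change differed between the genotypes was tested as an interaction, given below.

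**Figure D1:**
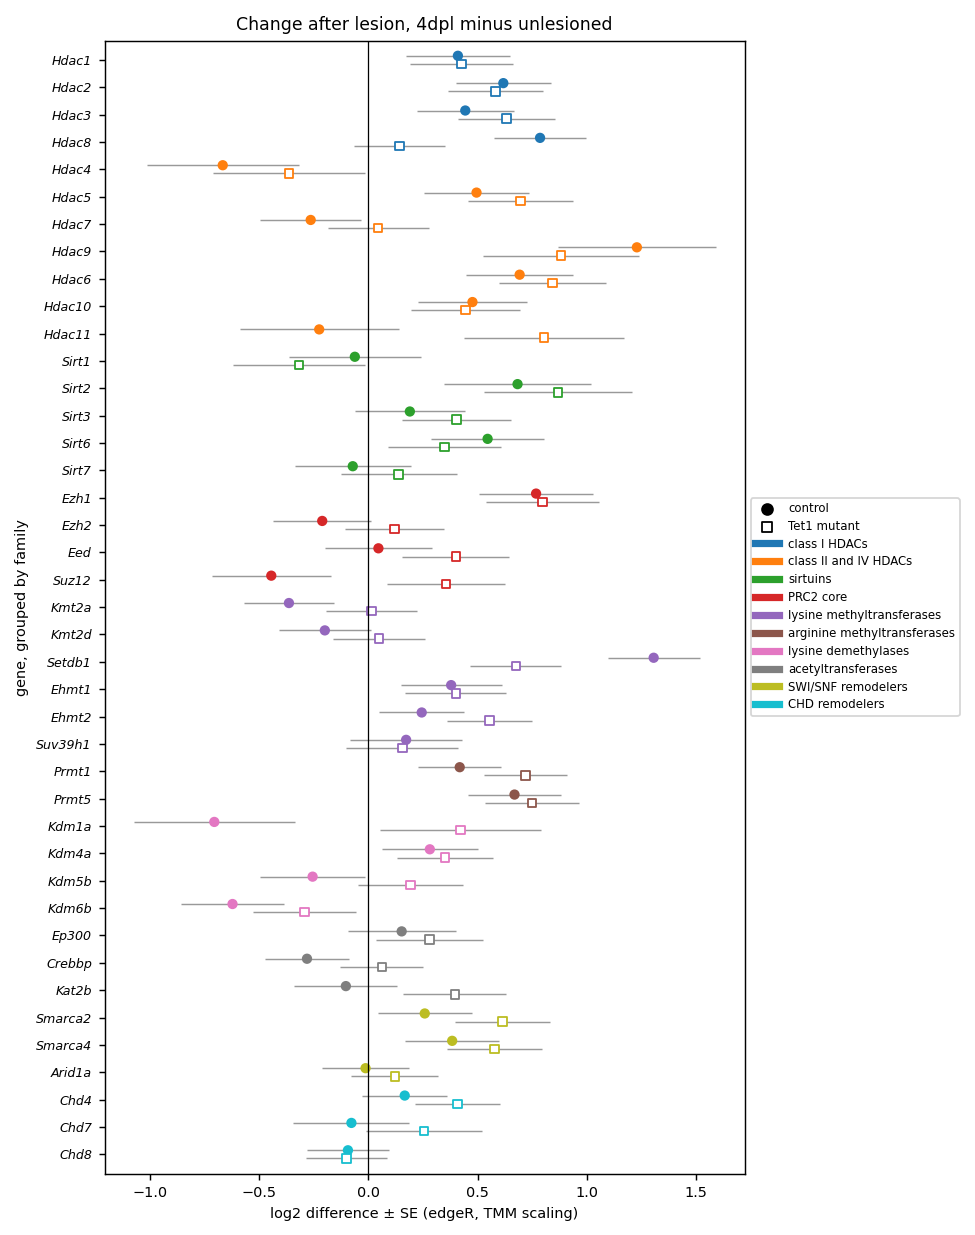
Change after lesion of all 41 genes in control (filled circles) and Tet1 mutant (open squares) libraries. The x axis is the log2 difference between 4dpl and unlesioned libraries from edgeR, bars are SE, and colours mark the 10 families. Setdb1 (1.31 in control, 0.68 in mutant), Hdac8 (0.79 and 0.14) and Hdac9 (1.23 and 0.88) lie to the right in control, and Kdm1a lies on opposite sides of 0 (-0.70 and 0.42).

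Averaged over both genotypes, which uses all 12 libraries, 12 of 41 members rose and 0 fell, where 14.2% of all genes were called higher and 18.6% lower. The risen genes were Setdb1, Prmt5, Hdac6, Ezh1, Prmt1, Hdac9, Hdac2, Hdac8, Hdac5, Hdac3, Sirt2 and Smarca4. The median change was 0.29 for members and -0.28 for all genes, and a member's change is read beside that median. The changes were also computed with DESeq2's size factors (RLE), with total counts, without a filter on low counts, and with genes of at least 10 counts in every library only. The split of calls among members was 12 higher and 0 lower with TMM scaling, 10 and 1 with RLE, 1 and 9 with total counts, 11 and 0 without the filter, and 5 and 5 under the strict filter, which kept 17528 genes and called 10.5% of them higher and 9.94% lower. With the receptor reads subtracted it was 5 and 1. Over all genes the share called in either direction was 31.8% with RLE, 31.1% with total counts and 25.7% without the filter. It was 13.2% with the receptor reads subtracted. The shares called higher and lower were 11.1% and 20.7% with RLE, 2.56% and 28.6% with total counts and 10.5% and 15.2% without the filter. With the receptor reads subtracted they were 7.35% and 5.82%. The gap between the median member and the median gene was 0.57 with TMM, 0.58 with RLE and 0.57 with total counts, while it was 1.21 without the filter, 0.07 with the receptor reads subtracted and -0.01 under the strict filter. The members' median thus lay well above that of all genes tested except with the receptor reads subtracted or among genes with at least 10 counts in every library. All 12 called genes had a positive change under each of these 6 settings, and 5 of them were called also under the strict filter, namely Setdb1, Prmt5, Hdac6, Ezh1 and Hdac9.

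**Figure D2:**
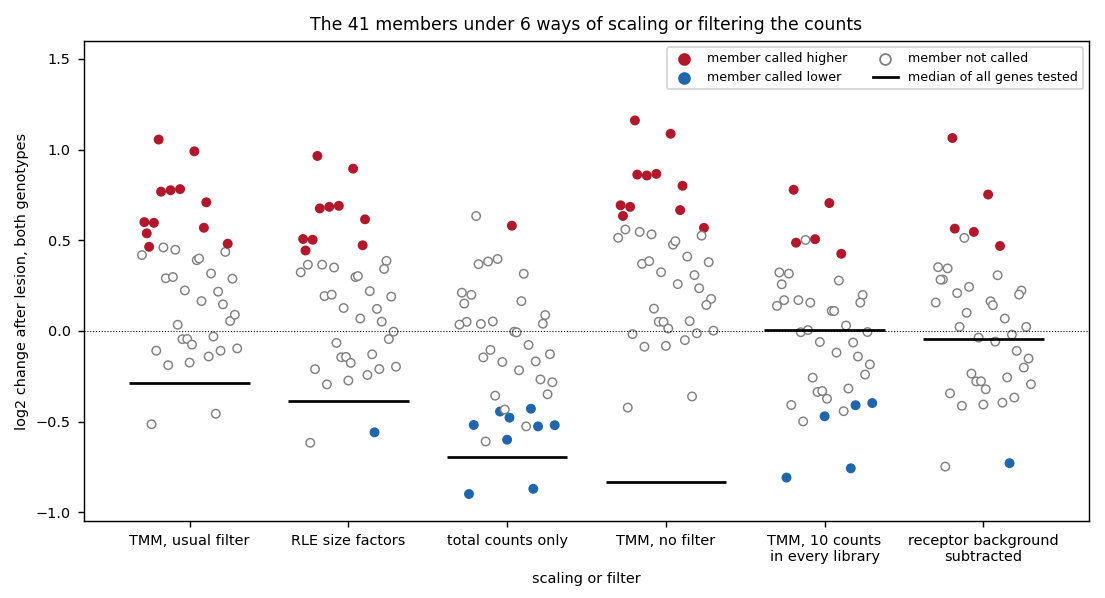
Change after lesion over both genotypes for the 41 genes under 6 ways of scaling or filtering. Each point is a member, red if called higher, blue if called lower and open if not called. The black line is the median of all genes tested. It ran from -0.83 without the filter to 0.00 under the strict filter, and was -0.69 with total counts.

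The promoters of the members were read from RefSeq (GRCm38.p6), 250 bases before and 50 after the start, for 36 of the 41 genes, with no entry used for Hdac1, Hdac3, Hdac10, Kdm6b and Chd7. Hydroxymethylation is placed on cytosines, mainly those followed by guanine, so CG dinucleotides were counted. A promoter held a median of 26.5 CG among members and 8 among all genes when the richest promoter of each gene was taken. The 11 called genes with a promoter had a median of 17 and the others 29. Hdac9 and Hdac8 were the only members with fewer than 10 CG in every promoter, as in 54.2% of all genes. The 250 bases before the start are given for the 3 genes called in control and for the 2 genes with the largest genotype difference at 4dpl, Kdm1a and Suz12, all in the 5′ to 3′ direction of the gene with CG in capitals. Setdb1 lies at chr3:95357203-95357452 (minus strand), both Hdac9 promoters at chr12:34917096-34917345 and chr12:34528890-34529139 (minus), Hdac8 at chrX:102505159-102505408 (minus), Kdm1a at chr4:136602724-136602973 (minus) and Suz12 at chr11:79992856-79993105 (plus).
Setdb1: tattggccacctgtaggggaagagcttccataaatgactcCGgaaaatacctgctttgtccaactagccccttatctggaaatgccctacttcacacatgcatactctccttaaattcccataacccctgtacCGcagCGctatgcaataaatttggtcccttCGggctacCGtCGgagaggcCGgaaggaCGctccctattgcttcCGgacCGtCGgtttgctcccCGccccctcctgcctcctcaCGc
Hdac9, outer promoter: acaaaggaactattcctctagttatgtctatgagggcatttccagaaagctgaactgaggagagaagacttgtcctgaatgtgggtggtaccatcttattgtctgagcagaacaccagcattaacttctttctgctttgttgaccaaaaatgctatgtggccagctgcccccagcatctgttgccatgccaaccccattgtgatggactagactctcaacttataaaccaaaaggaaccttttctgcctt
Hdac9, inner promoter: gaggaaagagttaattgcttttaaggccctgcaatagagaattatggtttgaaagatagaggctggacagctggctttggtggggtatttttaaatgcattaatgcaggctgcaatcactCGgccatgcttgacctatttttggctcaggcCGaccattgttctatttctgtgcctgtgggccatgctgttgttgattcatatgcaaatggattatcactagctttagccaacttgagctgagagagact
Hdac8: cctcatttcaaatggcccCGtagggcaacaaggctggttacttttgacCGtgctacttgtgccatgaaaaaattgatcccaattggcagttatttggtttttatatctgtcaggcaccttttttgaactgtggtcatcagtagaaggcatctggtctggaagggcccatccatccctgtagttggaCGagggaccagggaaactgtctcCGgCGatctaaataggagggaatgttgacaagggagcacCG
Kdm1a: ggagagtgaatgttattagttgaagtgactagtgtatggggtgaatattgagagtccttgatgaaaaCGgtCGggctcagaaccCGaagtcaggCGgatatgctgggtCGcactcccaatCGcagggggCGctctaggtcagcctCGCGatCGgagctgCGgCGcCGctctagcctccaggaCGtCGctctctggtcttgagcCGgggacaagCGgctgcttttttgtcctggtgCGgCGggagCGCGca
Suz12: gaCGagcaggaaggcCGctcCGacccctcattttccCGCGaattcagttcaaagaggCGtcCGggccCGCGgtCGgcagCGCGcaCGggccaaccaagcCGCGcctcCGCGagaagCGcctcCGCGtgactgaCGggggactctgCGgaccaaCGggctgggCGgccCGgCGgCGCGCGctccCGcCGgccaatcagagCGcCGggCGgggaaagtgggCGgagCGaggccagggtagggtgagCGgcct
Within these 250 bases the outer Hdac9 promoter held 0 CG and the inner one 2, Hdac8 held 6, Setdb1 13, Kdm1a 21 and Suz12 37. Of the genes that rose in control, Hdac9 and Hdac8 were the poorest in CG among the 36 members with a promoter, but Setdb1 was not. This is a description with no test.

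Among deacetylases, class I genes had a positive change in 4 of 4 under all 6 settings, with 3 called under TMM. Hdac2, which with Hdac1 forms the catalytic pair of the NuRD and Sin3 complexes, had 51.6, 31.8 and 36.4 CPM in unlesioned and 61.5, 61.9 and 60.6 CPM in lesioned controls. In mutants Hdac2 had 51.9, 38.9 and 42.1 CPM unlesioned and 72.7, 62.9 and 63.3 CPM at 4dpl. All 6 lesioned libraries were above all 6 unlesioned ones, and the change over both genotypes was 0.60 ± 0.15 (adjusted p = 0.0101, edgeR). Hdac3, the deacetylase of the NCoR and SMRT corepressors, had 65.1, 35.8 and 45.7 CPM in control unlesioned libraries, where replicate 1 was as high as the lesioned controls at 67.05, 63.4 and 68.999 CPM. Its mutant libraries, 49.5, 49.2 and 45.7 CPM unlesioned and 74.5, 67.6 and 81.9 CPM at 4dpl, did not overlap, and the change was 0.54 ± 0.16 (adjusted p = 0.0173, edgeR). Hdac1 had 121, 65.8 and 69.8 CPM in control unlesioned libraries and 119, 117 and 106 CPM in control 4dpl libraries. Control unlesioned replicate 1 was the highest of all 12 libraries, so the control groups overlapped, and the change of 0.42 ± 0.17 over both genotypes did not pass (adjusted p = 0.0584, edgeR). In mutants Hdac1 had 75.4, 82.3 and 81.3 CPM unlesioned and 105, 115 and 102 CPM at 4dpl, which did not overlap and did not pass the test (0.43 ± 0.24, adjusted p = 0.209, edgeR). Without control unlesioned replicate 1 the change of Hdac1 over both genotypes was 0.61 (adjusted p = 0.00214, edgeR). That fit leaves out the unlesioned library with the highest Hdac1 level, and it called 12873 of 33892 genes. With all libraries kept, the change under the 6 settings ran from 0.04 with total counts to 0.51 without the filter. With the receptor reads subtracted it was 0.16.

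Of the 7 class II and IV deacetylase genes, Hdac9, Hdac6 and Hdac5 were called higher over both genotypes. Hdac6, an X-linked and mainly cytoplasmic enzyme that deacetylates tubulin, had 19.9, 11.6 and 18.3 CPM in unlesioned and 29.7, 25.7 and 24.96 CPM in lesioned controls. Mutant libraries had 19.03, 15.2 and 12.5 CPM unlesioned and 28.03, 23.97 and 31.9 CPM at 4dpl, and in both genotypes the groups stood apart (change 0.77 ± 0.17, adjusted p = 0.00650, edgeR). Hdac5, a class IIa enzyme that shuttles between nucleus and cytoplasm, changed by 0.60 ± 0.17 (adjusted p = 0.0155, edgeR), from 98.1, 68.4 and 76.2 to 111, 122 and 109.7 CPM in controls and from 97.9, 62.1 and 74.8 to 118, 106 and 157 CPM in mutants. Hdac9 over both genotypes changed by 1.06 ± 0.25 (adjusted p = 0.00808, edgeR). The related class IIa gene Hdac4 pointed the other way under all 6 settings, with 68.99, 47.3 and 32.5 CPM in unlesioned and 31.4, 30.4 and 31.99 CPM in lesioned controls, which were just apart, and 35.5, 82.4 and 48.7 and 27.7, 60.4 and 41.4 CPM in mutants, which overlapped. Hdac4 was called only under the strict filter (change -0.81, adjusted p = 0.0367, edgeR) and with total counts. Since a ratio within a library does not depend on its scaling, the ratio of Hdac9 to Hdac4 counts per kilobase was formed after the values were seen. It was 0.229 ± 0.181 (SD, n = 3) in unlesioned and 0.721 ± 0.125 (SD, n = 3) in lesioned controls, which did not overlap. In mutants it was 0.539, 0.0992 and 0.251 unlesioned and 1.11, 0.357 and 0.493 at 4dpl, where the groups overlapped.

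Hdac7 and Hdac10 did not pass in either genotype. Hdac11, the only class IV gene, varied widely among replicates, with 27.4, 51.1 and 39.8 CPM in control unlesioned and 35.5, 12.9 and 28.8 CPM in mutant unlesioned libraries. At 4dpl it had 35.2, 36.2 and 29.8 CPM in control and 32.7, 34.7 and 67.5 CPM in mutant libraries. The lowest library was mutant unlesioned replicate 2 and the highest mutant 4dpl replicate 3, the same libraries that had the lowest and the highest sum of oligodendrocyte markers.

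Sirt2 was the only sirtuin gene called, 1 of 5. It had 283, 187 and 190.1 CPM in unlesioned and 348, 343 and 369 CPM in lesioned controls, which did not overlap. Mutants had 357, 159 and 256 CPM unlesioned and 352, 364 and 695 CPM at 4dpl, where unlesioned replicate 1 lay above lesioned replicate 1 and lesioned replicate 3 stood far above every other library. The change over both genotypes was 0.78 ± 0.24 (adjusted p = 0.0214, edgeR). Without mutant 4dpl replicate 3 it was 0.60 (adjusted p = 0.0543). The summed oligodendrocyte markers had their lowest and highest values in the same libraries as Sirt2, and the part of these cells in its change was not tested. Sirt6, which trims acetyl groups at telomeres and promoters, had an unadjusted p under 0.05 (change 0.45 ± 0.18, adjusted p = 0.0621, edgeR). Sirt1, Sirt3 and Sirt7 lay between -0.19 and 0.30 and did not pass.

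**Figure D3:**
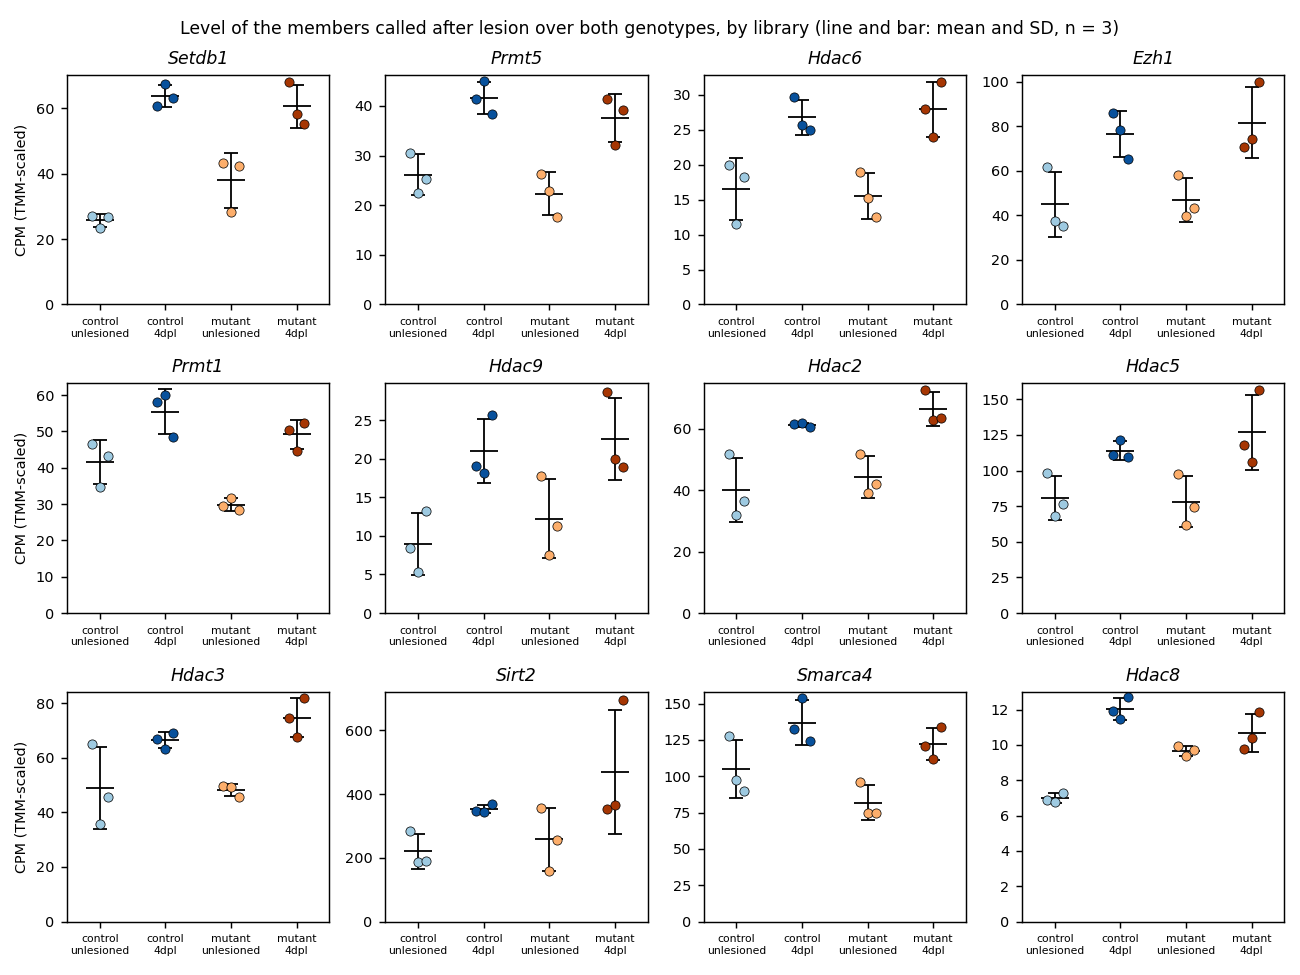
Level of the 12 genes called over both genotypes in each of the 12 libraries. The y axis is CPM after TMM scaling from 0, dots are libraries, and the line and bars give the mean and SD of each group of 3. Setdb1, Hdac2 and Hdac6 show all lesioned above all unlesioned libraries, and Sirt2 shows mutant 4dpl replicate 3 at 695 CPM against at most 369 elsewhere.

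In the PRC2 core, which methylates histone H3 lysine 27, only Ezh1 was called, 1 of 4 genes. Ezh1, the methyltransferase subunit that prevails in non-dividing cells, had 61.8, 37.5 and 35.4 CPM in unlesioned and 85.7, 78.1 and 65.5 CPM in lesioned controls. Mutant libraries had 57.99, 39.6 and 43.1 CPM unlesioned and 70.5, 74.1 and 99.7 CPM at 4dpl. Lesioned libraries lay above unlesioned ones in both genotypes, and the change was 0.78 ± 0.18 (adjusted p = 0.00748, edgeR). Ezh2, its counterpart in proliferating cells, had 27.3 ± 4.49 and 23.6 ± 0.686 CPM (SD, n = 3) in unlesioned and lesioned controls and 22.3 ± 2.91 and 24.3 ± 6.11 CPM (SD, n = 3) in mutants, a change of -0.05 ± 0.16 that did not pass (adjusted p = 0.832, edgeR). The ratio of Ezh1 to Ezh2 counts per kilobase, formed after the values were seen, was 1.74, 1.25 and 1.39 in unlesioned and 3.16, 3.03 and 2.54 in lesioned controls. In mutants the ratio was 2.67, 1.40 and 1.74 unlesioned and 2.57, 2.20 and 4.97 at 4dpl. Lesioned controls thus lay above unlesioned controls with no overlap, whereas unlesioned replicate 1 of the mutant exceeded lesioned replicates 1 and 2. Summed proliferation markers ran from 375 to 822 CPM unlesioned and from 363 to 732 CPM at 4dpl. The scaffold subunits Eed and Suz12 had changes of 0.22 ± 0.17 and -0.04 ± 0.19 over both genotypes and did not pass.

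Setdb1 was the only one of 6 lysine methyltransferase genes called, and over both genotypes it changed by 0.99 ± 0.15, a 1.99-fold rise (adjusted p = 0.00220, edgeR), and was called under all 23 alternative settings of this contrast. Its change relative to the median gene was 1.27 with TMM and 0.701 under the strict filter. Ehmt1 and Ehmt2, which pair as the H3 lysine 9 methyltransferases GLP and G9a, had changes of 0.39 ± 0.16 (adjusted p = 0.0684) and 0.40 ± 0.14 (adjusted p = 0.0328, edgeR, but unadjusted p over 0.01 for both). Ehmt2 had 42.7, 35.9 and 39.8 CPM in unlesioned and 65.05, 53.8 and 55.1 CPM in lesioned mutants, without overlap, and 53.5, 48.5 and 52.9 and 51.4, 71.1 and 61.2 CPM in controls, with overlap. Suv39h1, the heterochromatin methyltransferase of the same residue, had a change of 0.16 ± 0.18 that did not pass. The ratio of Setdb1 to Suv39h1 was 1.05 ± 0.291 (SD, n = 3) in unlesioned and 2.27 ± 0.548 (SD, n = 3) in lesioned controls. It was 1.62 ± 0.543 and 2.25 ± 0.168 (SD, n = 3) in unlesioned and lesioned mutants. Kmt2a and Kmt2d, which methylate H3 lysine 4 at promoters and enhancers, had changes of -0.17 ± 0.15 and -0.08 ± 0.15 without passing, and Kmt2a was called lower under the strict filter (-0.47, adjusted p = 0.0338, edgeR).

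Both arginine methyltransferase genes of the list were called, and both had a positive change under all 6 settings. Prmt5, which places symmetric dimethylarginine on histones and splicing proteins, had 30.6, 22.6 and 25.3 CPM in unlesioned and 41.3, 44.98 and 38.5 CPM in lesioned controls. Mutant libraries had 26.3, 22.95 and 17.7 CPM unlesioned and 41.4, 32.1 and 39.2 CPM at 4dpl. All 6 lesioned libraries were higher than all 6 unlesioned ones, with a change of 0.71 ± 0.15 (adjusted p = 0.00538, edgeR). Prmt1, the main enzyme for asymmetric dimethylarginine, had 46.6, 34.7 and 43.2 CPM unlesioned and 57.96, 59.99 and 48.4 CPM at 4dpl in controls. In mutants Prmt1 had 29.6, 31.7 and 28.4 CPM unlesioned and 50.4, 44.7 and 52.4 CPM at 4dpl. Groups did not overlap within either genotype, and the change was 0.57 ± 0.14 (adjusted p = 0.00780, edgeR), which under the strict filter was 0.28 and did not pass (adjusted p = 0.0975, edgeR).

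None of the 4 lysine demethylase genes and none of the 3 acetyltransferase genes was called. Kdm6b, which removes methyl groups from H3 lysine 27 and is known to be induced in inflammation, had 80.5, 94.3 and 82.3 CPM in unlesioned and 37.3, 65.2 and 64.8 CPM in lesioned controls. All 3 lesioned controls were below all 3 unlesioned ones, while mutants had 49.8, 66.6 and 58.9 CPM unlesioned and 42.4, 53.7 and 47.1 CPM at 4dpl, with overlap. The change over both genotypes was -0.46 ± 0.17 (adjusted p = 0.0426, edgeR, but unadjusted p over 0.01), negative under all 6 settings and called under the strict filter (-0.76, adjusted p = 0.0124), with RLE, with total counts and with the receptor reads subtracted. Kdm4a and Kdm5b had changes of 0.32 ± 0.16 and -0.03 ± 0.17. Crebbp, which encodes the acetyltransferase CBP, had 83.1, 92.6 and 90.3 CPM in unlesioned and 67.5, 79.8 and 71.7 CPM in lesioned controls, with no overlap, and a change over both genotypes of -0.11 ± 0.13 that was called only under the strict filter (-0.41, adjusted p = 0.0448, edgeR) and with total counts. Its paralog Ep300 had a change of 0.22 ± 0.17 and Kat2b, the acetyltransferase PCAF, of 0.15 ± 0.17.

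Among remodelers, Smarca4, the ATPase BRG1 of SWI/SNF, was called, 1 of 3 SWI/SNF genes. It had 128, 97.4 and 89.8 CPM in unlesioned and 132, 154 and 124 CPM in lesioned controls, where unlesioned replicate 1 reached the lesioned range, and 95.96, 74.5 and 74.99 and 121, 112 and 134 CPM in mutants, without overlap. The change was 0.48 ± 0.15 (adjusted p = 0.0243, edgeR), and the call was made under 9 of 23 alternative settings. Smarca2, the alternative ATPase BRM, had a change of 0.44 ± 0.15 (adjusted p = 0.0355, edgeR, but unadjusted p over 0.01), with 91.3, 61.8 and 65.5 CPM in unlesioned and 112, 105 and 117 CPM in lesioned mutants. Arid1a, a DNA-binding subunit, had a change of 0.05 ± 0.141 (SE). The 3 CHD genes did not pass. Chd4, the ATPase of NuRD, had a change of 0.29 ± 0.14, Chd7 of 0.09 ± 0.19 and Chd8 of -0.10 ± 0.13, and Chd8 was called lower under the strict filter (-0.40, adjusted p = 0.0485, edgeR).

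The number of settings that kept each call over both genotypes, out of 23 alternatives, was 23 for Setdb1, 22 for Hdac9, Hdac6, Ezh1 and Prmt5, 20 for Hdac2 and Prmt1, 19 for Hdac5, 17 for Hdac3, 13 for Sirt2, 9 for Smarca4 and 6 for Hdac8. With control unlesioned replicate 1 left out 17 members (41.5%) and 12873 of 33892 genes were called. The count was 8 members (19.5%) both without control unlesioned replicate 3, where 24.5% of all genes were called, and without mutant unlesioned replicate 3, where 23.6% were.

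The second question was how the genotypes differed. In unlesioned cord 0 of 41 members were called (edgeR), as were 0% of all genes, and 5 members had an unadjusted p under 0.05 where 5.22% of all genes did. DESeq2 called 0 members and 0.145% of all genes. Setdb1 (0.56 ± 0.21) and Hdac8 (0.47 ± 0.21) were on the higher side in mutants, and Prmt1 (-0.47 ± 0.19), Kdm6b (-0.55 ± 0.24) and Crebbp (-0.41 ± 0.19) on the lower side, with adjusted p from 0.809 to 0.950. For each of these 5 genes the 3 mutant libraries did not overlap with the 3 controls. Mutant unlesioned replicate 2 was the mutant library nearest to the controls for Setdb1, and without it the difference was 0.73 (adjusted p = 0.992, edgeR).

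At 4dpl 0 members were called and 0% of all genes (edgeR), and 2 members had an unadjusted p under 0.05 where 6.92% of all genes did. DESeq2 called 0 members and 0.730% of all genes. Kdm1a, the H3 lysine 4 demethylase LSD1, had 12.7, 15.5 and 15.7 CPM in lesioned controls and 23.7, 27.99 and 62.8 CPM in lesioned mutants. All 3 mutant libraries were above all 3 controls, with replicate 3 far above the others, and the difference was 1.38 ± 0.37 (adjusted p = 0.308, edgeR). Without mutant 4dpl replicate 3 it was 0.82 (adjusted p = 0.836, edgeR). In unlesioned tissue Kdm1a had 30.1, 22.6 and 18.8 CPM in controls and 18.9, 42.6 and 23.9 CPM in mutants, with overlap. Suz12, a PRC2 scaffold, had 11.5, 13.5 and 16.9 CPM in lesioned controls and 21.9, 34.9 and 25.2 CPM in lesioned mutants, again without overlap, a difference of 0.97 ± 0.27 (adjusted p = 0.342, edgeR). Without mutant 4dpl replicate 3 it was 1.02, and without replicate 2 0.75. Kat2b came next, with 31.2, 35.6 and 34.7 CPM in lesioned controls and 36.4, 43.2 and 63.3 CPM in lesioned mutants (0.49 ± 0.24, adjusted p = 0.733, edgeR), and without mutant 4dpl replicate 3 it was 0.23.

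**Figure D4:**
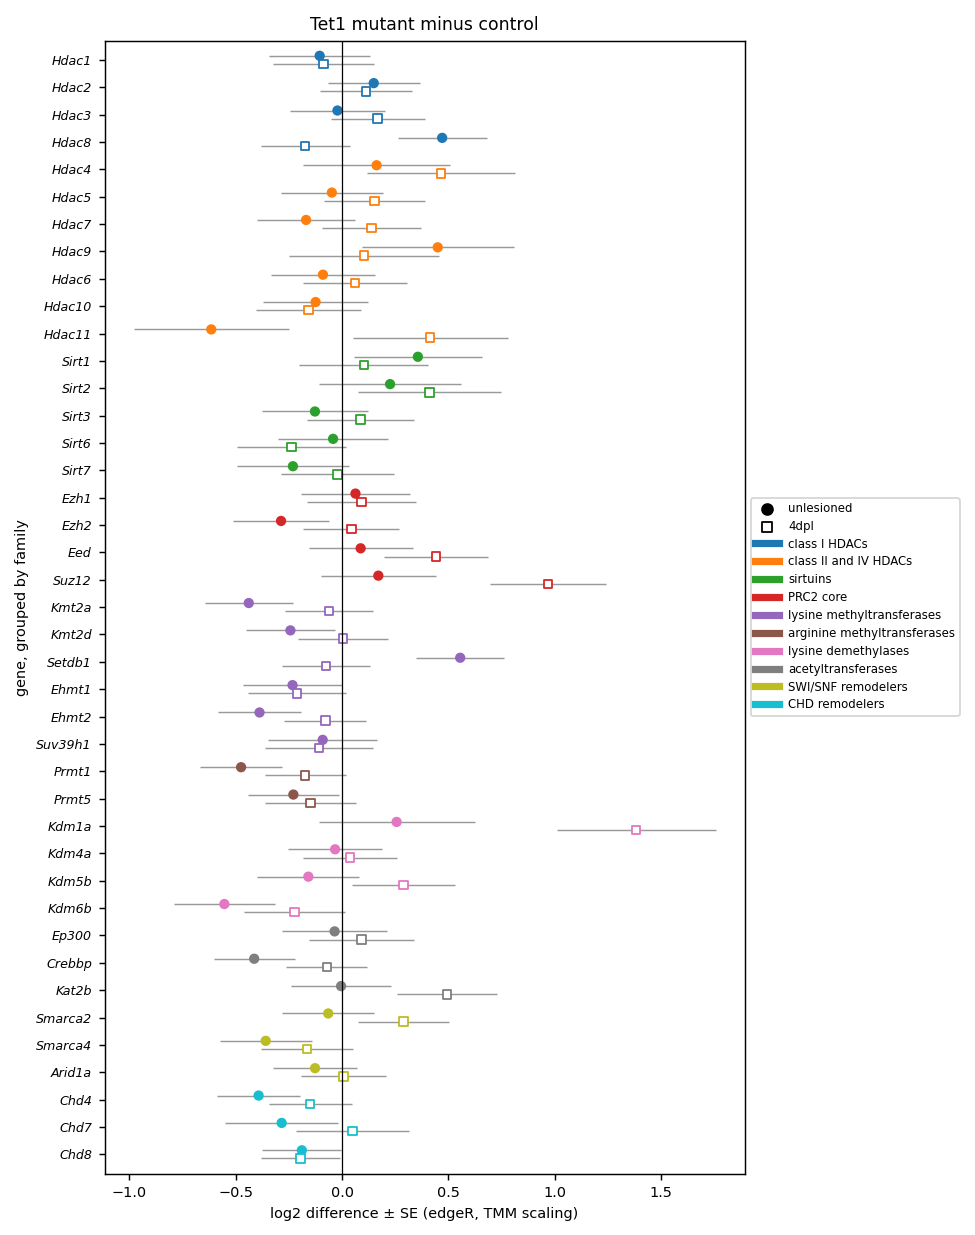
Difference between Tet1 mutant and control for the 41 genes in unlesioned tissue (filled circles) and at 4dpl (open squares). The x axis is the log2 difference from edgeR, bars are SE and colours mark the families. Kdm1a (1.38) and Suz12 (0.97) at 4dpl lie farthest to the right, and no difference passed the threshold.

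The interaction, which tests whether the change after lesion differed between genotypes, gave 0 calls among members and 0% among all genes (edgeR), with 3 members at an unadjusted p under 0.05 where 3.81% of all genes were, and DESeq2 called 0 members and 0 of all genes. Hdac8 (-0.64 ± 0.30) and Setdb1 (-0.63 ± 0.29) had a smaller change in mutants than in controls by the point estimate, and Kdm1a differed by 1.13 ± 0.52, the adjusted p being 0.9999 for each. The calls of Setdb1, Hdac8 and Hdac9 in control and their lack in mutants are therefore not shown to differ between the genotypes.

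Mutant 4dpl replicate 3 held the highest level of 12 members, which were Sirt2, Hdac11, Kat2b, Kdm1a, Ezh1, Hdac5, Smarca2, Hdac3, Hdac6, Hdac7, Sirt3 and Kdm4a. Its sum of oligodendrocyte markers was 69635 CPM and that of oligodendrocyte progenitor markers 887 CPM, where the other libraries had at most 34528 and 563 CPM. Mutant unlesioned replicate 2, the library with the lowest sum of oligodendrocyte markers, had the second highest level of Kdm1a at 42.6 CPM. The part of cell makeup in the Kdm1a levels was not tested. Without mutant 4dpl replicate 3, 9 of the 12 lesion calls over both genotypes were made, all but Sirt2, Smarca4 and Hdac8. In that fit 26.6% of all genes were called.

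**Figure D5:**
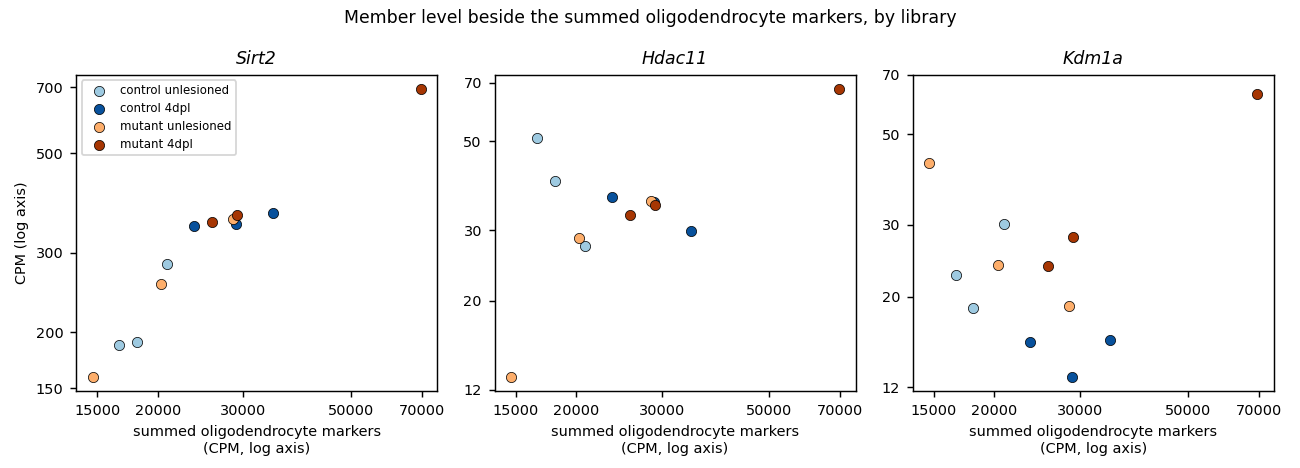
Level of Sirt2, Hdac11 and Kdm1a (CPM, log axis) against the summed level of 10 oligodendrocyte markers (CPM, log axis) in each of the 12 libraries, coloured by group. Mutant 4dpl replicate 3 lies at the upper right in all 3 panels, and Sirt2 lies low where the markers are low, while Kdm1a is high at both ends of the marker range. The libraries share their scaling on both axes.

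A wider list of 139 other writers, erasers, readers and remodelers was described with the same fit. In control 5 of the 139 were called higher and 3 lower, beside 5.12% and 5.01% of all genes, and in mutants 0. Over both genotypes 28 (20.1%) were called higher and 3 (2.16%) lower, beside 14.2% and 18.6% of all genes, with a median change of 0.24 over both genotypes beside 0.29 for the members and -0.28 for all genes. The arginine methyltransferase genes Prmt7 and Prmt6 and the methyltransferase gene Smyd5 had the smallest p-values among those that rose. Prmt7 had 27.3, 20.4 and 23.8 CPM in unlesioned and 40.7, 45.7 and 38.6 CPM in lesioned controls and 21.9, 15.9 and 16.9 and 36.4, 30.9 and 37.1 CPM in mutants (change 0.87 ± 0.15, adjusted p = 0.00279, edgeR). Prmt6 changed by 0.999 ± 0.199 (adjusted p = 0.00450) and Smyd5 by 0.90 ± 0.19 (adjusted p = 0.00553). Of the 6 arginine methyltransferase genes on the wider list 5 were called higher, Prmt2, Prmt3, Prmt6, Prmt7 and Prmt9, and the other was Carm1. Also called higher were 5 of 14 other lysine demethylase genes, 5 of 18 SWI/SNF subunit genes (Smarcc1, Smarcc2, Smarce1, Smarcb1 and Dpf2), 4 of 22 Polycomb genes, among them Rbbp4 and Rbbp7 whose products bind histones in PRC2 and NuRD, and 4 of 11 other acetyltransferase genes. None of the 12 ISWI and INO80 genes and none of the 10 reader genes was called.

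Setd1b, a H3 lysine 4 methyltransferase gene, Brpf3, a scaffold of an acetyltransferase complex, and Dpf3, a SWI/SNF subunit gene, fell, with log2 changes of -0.64 ± 0.165, -0.74 ± 0.20 and -0.98 ± 0.31 (adjusted p = 0.0103, 0.0132 and 0.0243, edgeR). Brpf3 had 24.5, 25.01 and 13.6 CPM in unlesioned and 6.03, 10.4 and 7.44 CPM in lesioned controls, and 13.6, 17.2 and 12.5 and 11.6, 14.8 and 14.7 CPM in mutants, where the groups overlapped. Between genotypes at 4dpl 17 of the 139 genes (12.2%) had an unadjusted p under 0.05, all higher in mutants, and none was called. Over all genes 5.15% were higher and 1.77% lower in mutants at that level. Smarca5, the ATPase of the ISWI remodelers, had 34.8, 41.6 and 43.7 CPM in lesioned controls and 68.96, 75.4 and 101 CPM in lesioned mutants (1.03 ± 0.24, adjusted p = 0.230, edgeR). Mutant 4dpl replicate 3 was the highest of these libraries.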

How the data were processed

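RNA of the 12 libraries was sequenced by the authors, who counted uniquely aligned reads over the exons of Ensembl genes with featureCounts and deposited these raw counts, one table per library, with no normalization. Their methods name BWA as the aligner, while the processing notes of the labels list STAR, and the genome build is mm10 (GRCm38).

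Symbols were matched by Ensembl identifier (54723 of 54838 genes). The filterByExpr step of edgeR 4.0.16 (R 4.3.3) retained 31109 genes, TMM set the scaling, and glmQLFit took all 12 libraries with 4 group means. Contrasts were tested by glmQLFTest and called at p under 0.01 and Benjamini-Hochberg adjusted p under 0.05 over all genes tested. CPM and RPKM are after TMM. Given with library values are members called in a contrast and the 3 with the smallest p in each contrast. The highest by RPKM in each family are given so too, except that Eed and Chd4 have only summary values. For Suz12 and Kat2b only the library values at 4dpl are given. Other members named with values, and the ratios, were chosen after their values were seen. The members and gene lists were chosen with earlier results of these data known. Total counts were 34805086 to 67251544 per library, so precision is set by the 3 libraries of a group rather than by counting error.

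Alternatives were DESeq2 1.42.0, other edgeR options, scalings, filters and thresholds, voom with sample weights (limma 3.58.1), replicate blocks, and each library left out in turn. Added after seeing the data were the subtraction of receptor reads, scaled from 1428 receptor genes to each gene's length, and the share of all genes called under each alternative. Scripts were tested on simulated data. No 2 libraries of a group agreed within sampling noise.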

Additional observations from a re-analysis of the deposited data

Results flagged for a closer look

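The change after lesion differed between the genotypes at an unadjusted p under 0.05 in the interaction test for 3 members, and in none after adjustment (edgeR, adjusted p = 0.9999 for each), where 3.81% of all genes reached the same unadjusted level. For Hdac8 the change in Tet1 mutants minus that in controls was -0.64 on the log2 scale, and for Setdb1 it was -0.63. For Kdm1a it was 1.13, and without mutant 4dpl replicate 3 it was 0.57.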

How the results depend on the processing

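Over alternatives, the number of members called in control, 3 as reported, was 7 (17.1%, beside 22.5% of all genes in the same fit) with DESeq2, 1 (2.44%, beside 4.52%) with only the groups compared, 14 (34.1%, beside 31.1%) with voom and sample weights, 8 (19.5%, beside 24.3%) at an adjusted p under 0.10 and 0 (beside 0.118%) with the receptor reads subtracted. The number in mutants, 0 as reported, was 3 (7.32%, beside 17.0%) with DESeq2, 4 (9.76%, beside 14.2%) with edgeR's newer option, 12 (29.3%, beside 21.9%) with voom and 11 (26.8%, beside 20.6%) at an adjusted p under 0.10. Over both genotypes, 12 as reported, it was 19 (46.3%) with voom, beside 46.4% of all genes, 19 at an adjusted p under 0.10, beside 52.6%, and 6 (14.6%) with the receptor reads subtracted, beside 13.2%. The cause was not tested. Leaving out 1 library gave 0 to 8 members in control. It gave 0 without control unlesioned replicate 2 or control 4dpl replicates 1 or 2, where 0.00300%, 0.0118% and 0.00589% of all genes were called. Without control unlesioned replicate 1 it gave 8, beside 21.8% of all genes. In mutants the range was 0 to 11. It was 11 (beside 13.3%) without control unlesioned replicate 1 and 8 (beside 10.2%) without mutant unlesioned replicate 1. Over both genotypes the range was 8 to 17. In the genotype contrasts and the interaction the number of members called stayed at 0 in each of these fits. Of 627 results for single members, 517 kept their side of the threshold, 93 were no longer called, 17 became called and none reversed. Results that were not called as reported and stayed so count among the 517, so this number does not measure how stable the calls were.

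Replicate numbers do not mark shared mice in the labels. Samples with the same label number deviated together in 5 of 6 pairs (correlations from -0.012 to 0.290), and 9 of 12 correlated best with their own number. With the label number as a block 4 members (9.76%) were called in control, 0 in mutants and 12 (29.3%) over both genotypes. Over all genes these fits called 12.4%, 0.0129% and 31.3%. With the number of the study's sample names as a block 1 (2.44%) was called in control and 7 (17.1%) over both genotypes. Over all genes that block gave 3.22% in control and 17.0% over both genotypes.

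Receptor reads were the largest share of the level for Hdac9, Chd8 and Hdac8 in unlesioned libraries. With these reads subtracted the change over both genotypes was 1.06 for Hdac9, the same as reported, 0.28 for Hdac8 (0.46 as reported) and -0.29 for Chd8 (-0.10 as reported), and it was 0.16 for Hdac1 (0.42 as reported) and 0.51 for Sirt2 (0.78 as reported).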
